A study of Homo sapiens with 4 samples.

Results

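Osteopontin (SPP1), bone sialoprotein (IBSP), the osteonectin gene SPARC and ODAPH, a secreted phosphoprotein of forming enamel, were followed across 4 arrays of SCP2 cells. The 4 genes were found by an exact match of the gene symbol in the platform annotation, which gave 7 probe sets, and they are 4 of 19775 genes that the annotation names. They had been chosen by name with earlier results on these arrays in view, among them the low SPP1 values in the arrays labelled DLC1 and the rise of ODAPH with TGF-beta, so the differences below describe those arrays and no test is attached to them. SCP2 is a bone-seeking subline of the human breast cancer line MDA-MB-231. The cells carried either a vector control or a DLC1 overexpression construct, and both were profiled without and with TGF-beta, so that vector, vector with TGF-beta, DLC1 and DLC1 with TGF-beta have 1 array each. None of the sources used here gives the promoter of the construct, whether the cells are 1 clone, or the dose and duration of TGF-beta.

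Bone matrix is mostly collagen I with a small share of acidic, phosphorylated glycoproteins. Osteopontin and bone sialoprotein belong to the SIBLING group, which bind mineral through acidic stretches and bind integrins through an Arg-Gly-Asp motif; osteopontin also binds CD44 and is known for high levels in many tumours that spread to bone. SPARC binds collagen and calcium and guides collagen assembly. The SIBLING genes and ODAPH lie on the same chromosome as most milk, saliva and enamel protein genes of the secretory calcium-binding phosphoprotein family. That family is thought to have arisen from a SPARC-like ancestor. TGF-beta is held in bone matrix and released when bone is resorbed.

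The 250 bases before the start site are printed for SPP1 and IBSP, since these genes are close neighbours with unlike patterns on the arrays, and for ODAPH, the gene that was higher with TGF-beta. They come from RefSeq on build GRCh38.p14, plus strand, at chr4:87975464-87975713 for SPP1, chr4:87799304-87799553 for IBSP and chr4:75555816-75556065 for ODAPH. Capitals mark matches on either strand to a SMAD box (CAGAC), a RUNX motif (ACCACA) or an AP-1 motif (TGANTCA).
SPP1: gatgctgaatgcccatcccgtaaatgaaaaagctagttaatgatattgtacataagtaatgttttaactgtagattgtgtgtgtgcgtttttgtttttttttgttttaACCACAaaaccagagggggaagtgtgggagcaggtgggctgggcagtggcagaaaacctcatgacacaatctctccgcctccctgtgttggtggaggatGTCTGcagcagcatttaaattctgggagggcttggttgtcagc
IBSP: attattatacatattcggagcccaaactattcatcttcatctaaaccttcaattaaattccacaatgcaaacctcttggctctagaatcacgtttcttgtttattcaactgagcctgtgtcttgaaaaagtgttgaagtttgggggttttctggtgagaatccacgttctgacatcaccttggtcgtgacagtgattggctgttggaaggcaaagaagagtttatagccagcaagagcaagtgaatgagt
ODAPH: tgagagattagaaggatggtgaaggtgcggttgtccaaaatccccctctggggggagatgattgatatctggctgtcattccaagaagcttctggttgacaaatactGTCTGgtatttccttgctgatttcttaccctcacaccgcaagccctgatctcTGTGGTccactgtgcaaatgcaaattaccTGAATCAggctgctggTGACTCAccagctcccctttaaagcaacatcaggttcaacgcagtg

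In the SPP1 window the RUNX letters begin 142 bases before the start and the SMAD box 43 bases before it. The ODAPH window holds a SMAD box 143 bases before the start, a RUNX match 91 bases before it, and 2 AP-1 matches that begin 62 and 46 bases before it. None of these 3 motifs occurs in the IBSP window or in that of SPARC, at chr5:151686916-151687165 on the minus strand. IBSP alone of the 4 windows holds a TATAAA match, on the opposite strand and 30 bases before the start. Of all 35116 promoter windows of this length, 38% hold the SMAD box, 11% the RUNX motif, 6.57% the AP-1 motif and 10.7% TATAAA. The E-box CANNTG is in every one of the 4 windows and in 61.8% of all, and the ETS core GGAAG is in those of SPP1, IBSP and SPARC and in 65.1% of all. No 2 of the matches overlap, and a match is a run of letters, not evidence that a factor binds there.

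Intensities are RMA summaries on a linear scale in arbitrary units, with quartiles of all values at 0.14, 0.38 and 1.97. Each gene is represented by the brightest of its probe sets on average, and genes that stayed below the median of 0.38 on all 4 arrays were left out, which kept 13137 genes. All 4 of the matrix genes were kept; 4 of their 7 probe sets reach the median, and the other 3 lie between 0.06 and 0.10. Differences are given in log2 units and counted where they are 2-fold or more. With 1 array for each group there is no replicate check, no error and no p-value. In what follows, the vector pair and the DLC1-labelled pair are the arrays without and then with TGF-beta, in that order. The DLC1 transcript did not settle the labels, hence that name: probe set 210762_s_at read 1.77 and 2.51 in the vector pair and 3.38 and 3.64 in the DLC1-labelled pair, but 224822_at read 1.79 and 2.41, then 1.44 and 1.69, and 220512_at was lower in the DLC1-labelled pair as well. Every direction drawn from those labels carries this limit. As a check of the TGF-beta label, all 5 measured genes of a response check (PMEPA1, SMAD7, SKIL, COL4A1 and LTBP2) were at least 2-fold higher with it, by medians of 2.30 in the vector pair and 2.10 in the DLC1-labelled pair.

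SPP1 was far lower in the DLC1-labelled pair. Probe set 209875_s_at gave 1.96 and 2.43 for the vector pair, against 0.17 and 0.14 for the DLC1-labelled pair. The DLC1-labelled values are close to the 25th percentile of all values, 0.14. That the pairs do not overlap is not read as a result for any of the 4 genes. The nearly flat IBSP separates too, at 0.40 and 0.42 against 0.43 and 0.46, and the share of all genes that do was not counted. The SPP1 difference was -3.53 without TGF-beta, an 11.5-fold lower value, and -4.12 with it, 17.4-fold lower. Rounding of the deposited values to 2 decimals would by itself allow -3.57 to -3.48 and -4.17 to -4.06. The files give no detection calls, so whether SPP1 was above background in the DLC1-labelled pair is unknown, and both folds rest on those dim values. SPP1 passed the filter through the vector pair alone. As a description, its difference was the lowest of the 13137 genes in each state, and it ranked 24th and 5th from the lowest with the mean of probe sets. Fewer cells that express a gene and less RNA per cell cannot be told apart in bulk samples such as these. Among markers of macrophages, cells that make much osteopontin, LYZ was also lower, at 0.45 and 0.40 in the vector pair and 0.20 and 0.17 in the DLC1-labelled pair. The summed level of the 6 measured markers was 3.94 and 3.42, then 3.51 and 3.11, with PTPRC between 0.15 and 0.29 and highest in the array labelled DLC1; the part of such cells in the SPP1 difference was not tested.

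The second SPP1 probe set, 1568574_x_at, read between 0.06 and 0.07 on all arrays, close to the lowest value in the file, 0.05. Averaging it with the first brought the differences to -1.65 and -2.17, still past 2-fold. With TGF-beta SPP1 stayed within 2-fold: the difference was 0.31 in the vector pair and -0.28 in the DLC1-labelled pair. The second of these compares 0.17 with 0.14, and rounding alone would allow -0.37 to -0.19.

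**Figure D1:**
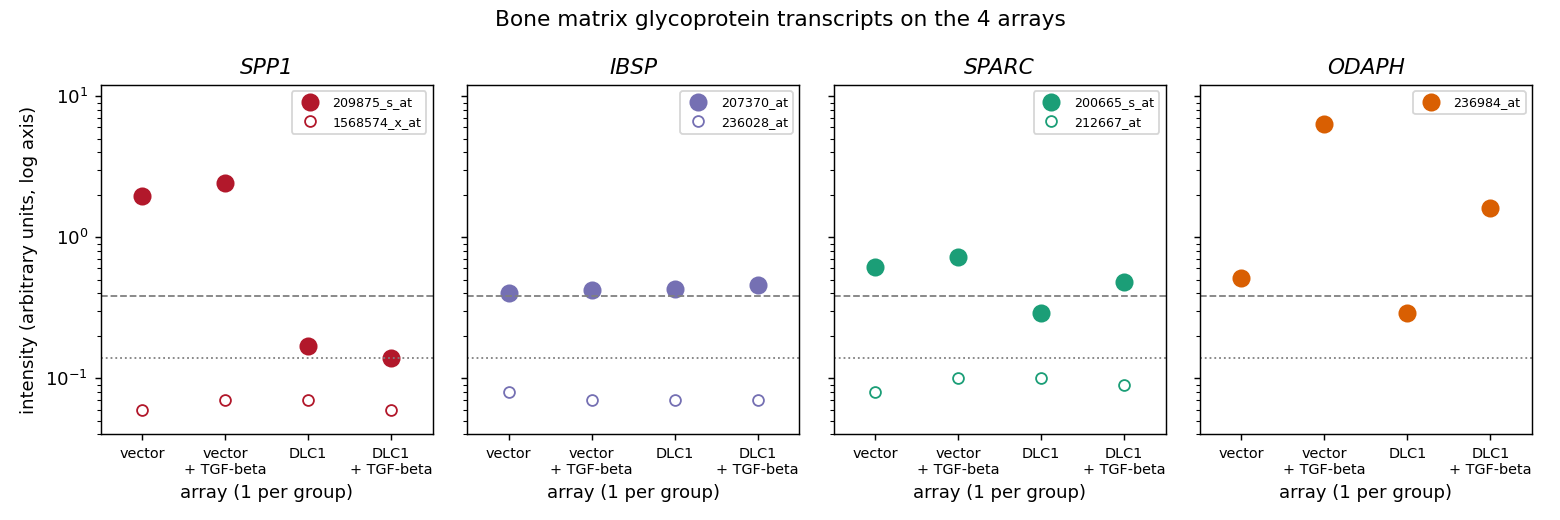
Intensity of each probe set of SPP1, IBSP, SPARC and ODAPH (arbitrary units, log axis) on the 4 arrays; filled points are the probe set that stands for the gene, open points the other probe set, and the dashed and dotted lines the median (0.38) and 25th percentile (0.14) of all values. SPP1 differs mainly between the vector and DLC1-labelled pairs, ODAPH mainly between arrays with and without TGF-beta, and IBSP stays between 0.40 and 0.46.

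IBSP, whose protein can nucleate mineral, read 0.40 and 0.42 in the vector pair and 0.43 and 0.46 in the DLC1-labelled pair with probe set 207370_at. These values barely pass the filter and span less than any other kept probe set of the 4 genes. The differences were 0.10 and 0.13 between DLC1 and vector, and 0.07 and 0.10 with TGF-beta. Without TGF-beta the DLC1 difference ran from -0.04 to 0.19 over the processing alternatives, so it has no settled direction. The TGF-beta differences of the same probe set turned to -0.03 and -0.09 when arrays were centred on housekeeping genes. The other probe set, 236028_at, read 0.07 or 0.08 on every array.

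SPARC was dim. Its probe set 200665_s_at gave 0.61 and 0.72 for the vector pair, against 0.29 and 0.48 for the DLC1-labelled pair. The nearest values of the vector and DLC1-labelled pairs were 0.61 and 0.48. The difference was -1.07 without TGF-beta, 2.10-fold lower, and -0.58 with it. The first stands just past 2-fold and lost that place under 4 alternatives, at -0.99 with arrays centred on housekeeping genes, -0.86 with 0.1 added before log2, -0.38 with the mean of the probe sets, and 0.32, the opposite sign, without probe sets ending in _s_at or _x_at. The last is the value of the other probe set, 212667_at, which read between 0.08 and 0.10, below the 25th percentile. With TGF-beta SPARC differed by 0.24 in the vector pair and 0.73 in the DLC1-labelled pair, both within 2-fold.

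ODAPH was strongly higher with TGF-beta. Its single probe set, 236984_at, gave 0.51 and 6.39 for the vector pair and 0.29 and 1.60 for the DLC1-labelled pair. The lower treated value was 1.60 and the higher untreated value 0.51. The untreated values are dim, 0.29 being below the median of all values, 0.38, and the TGF-beta folds below rest partly on them. With 0.1 added before log2 the TGF-beta differences were 3.41 in the vector pair and 2.12 in the DLC1-labelled pair. The TGF-beta difference was 3.65 in the vector pair, 12.5-fold, which was the highest of the 13137 genes, or the second highest with 0.1 added before log2 or with the mean of probe sets. In the DLC1-labelled pair it was 2.46, 5.52-fold, the 9th highest. Between DLC1 and vector ODAPH gave -0.81 without TGF-beta, within 2-fold, and -2.0 with it, 3.99-fold lower. The interaction, the TGF-beta difference in the DLC1-labelled pair minus that in the vector pair, was -1.18 and ran from -1.29 to -1.15 over the alternatives; it was not tested.

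Read by comparison, 2 of the 4 genes, SPP1 and SPARC, were at least 2-fold lower without TGF-beta between DLC1 and vector, where 2.34% of the kept genes were that much lower and 1.63% higher. With TGF-beta SPP1 and ODAPH were, against 1.64% of genes lower and 1.45% higher. With TGF-beta treatment ODAPH alone passed 2-fold, upward in both backgrounds, where 1.21% of genes in the vector pair and 0.792% in the DLC1-labelled pair were higher, and 0.685% and 0.107% lower. In the interaction ODAPH alone passed, downward, against 0.175% of genes lower and 0.19% higher. The genes were chosen with these differences known, so nothing is read from their share or from the medians that follow. Each median rests on the 2 middle genes of 4 with unlike patterns and describes no shared shift. The median over the 4 genes was -0.94 without and -1.29 with TGF-beta between DLC1 and vector, against -0.03 and -0.02 over all kept genes, and 0.27 and 0.41 for TGF-beta, against -0.03 and -0.01. The DLC1 and the TGF-beta comparisons share arrays, while the comparisons within each kind share none.

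Arrays were also centred on the median level of 11 housekeeping genes. The gene at that median was TFRC in the vector array, at 92.14, and PGK1 in vector with TGF-beta, at 98.55. In both DLC1-labelled arrays it was ACTB, at 86.79 and 98.49. The shift within that pair was thus that of ACTB, 0.18, while the median TGF-beta difference of the 11 genes there was -0.03. This centring changed the balance over all genes. It gave 272 genes higher and 244 lower between DLC1 and vector without TGF-beta, against 214 and 307. For TGF-beta it gave 126 and 124 in the vector pair, against 159 and 90, and 64 and 36 in the DLC1-labelled pair, against 104 and 14. For the interaction it gave 16 and 28, against 25 and 23. It moved the median TGF-beta difference of all genes in the DLC1-labelled pair from -0.01 to -0.19. SPP1 then stood at -3.44 and -4.12 between DLC1 and vector, and ODAPH at 3.55 and 2.28 with TGF-beta.

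**Figure D2:**
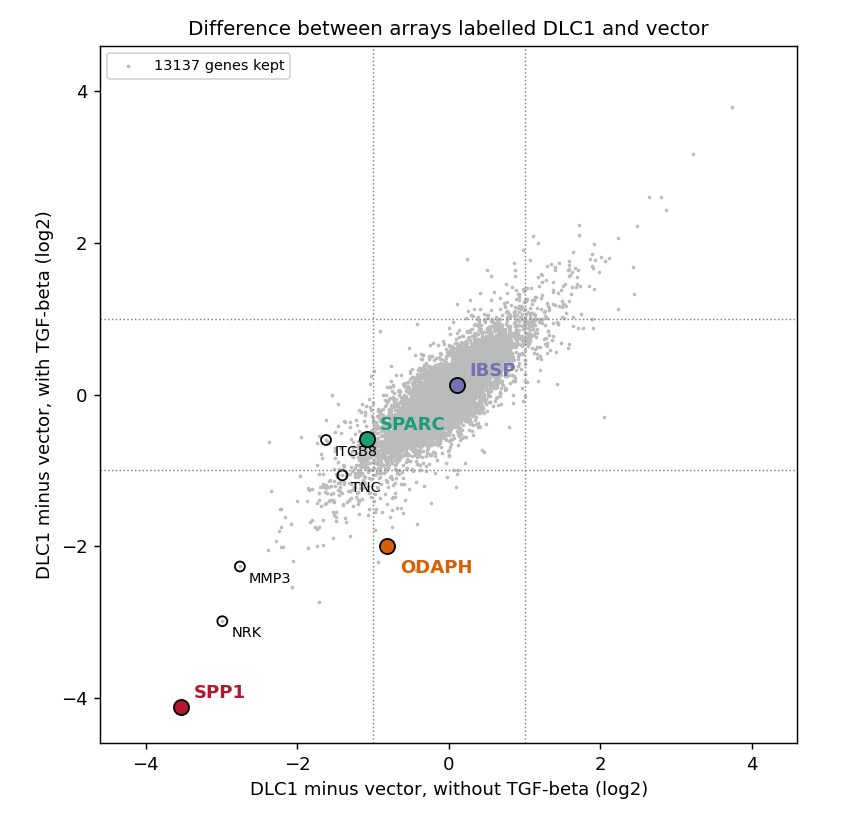
Log2 difference, DLC1 minus vector, without TGF-beta (x axis) and with it (y axis) for the 13137 genes kept (grey), with the 4 genes in colour, comparison genes ringed and dotted lines at 2-fold. SPP1 stands alone at -3.53 and -4.12, ODAPH lies lower with TGF-beta than without, and IBSP lies near 0.

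SPP1 and IBSP lie in the SIBLING cluster of chromosome 4, and the 6 protein-coding genes on each side of SPP1 were read as context, a rule set by position after the values had been seen. Of these 12 genes, 9 had a value and 6 were kept, and none of the 6 reached 2-fold in any of the 4 comparisons. Over all kept genes at most 2.34% were that much lower and 1.63% higher in any comparison, so nothing is read from this count. MEPE, the SIBLING gene between IBSP and SPP1, read 0.41, 0.46, 0.32 and 0.41 in the order vector, vector with TGF-beta, DLC1 and DLC1 with TGF-beta. The transporter gene ABCG2, on the other side, gave -0.82 and -0.73 between DLC1 and vector. DMP1 and DSPP, the SIBLING genes of dentin and bone, and SPARCL1, a relative of SPARC, stayed between 0.09 and 0.35 and under the filter. None of the kept genes beside SPP1 had a DLC1 difference as low. This was fixed in advance, since SPP1 had the lowest difference of all kept genes. MEPE and IBSP, at 0.41 and 0.40 in the vector array, also had little room to fall.

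Around ODAPH, 8 of 12 neighbouring genes were kept. The growth factor gene EREG gave TGF-beta differences of -2.50 in the vector pair and -0.75 in the DLC1-labelled pair, opposite in sign to ODAPH, with a lowest value of 0.14. The growth factor gene BTC gave -0.93 and -0.04. The kept genes closest to ODAPH, THAP6, RCHY1 and G3BP2, stayed between -0.29 and -0.02. That no kept neighbour rose as much in the vector pair was fixed in advance. ODAPH had the highest TGF-beta difference of all kept genes there. Between DLC1 and vector, PARM1 gave 1.23 without TGF-beta and 1.58 with it in 225809_at, while another probe set, 204687_at, gave 0.69 and 0.78. None of the 7 kept neighbours of SPARC reached 2-fold in any comparison. Nothing is read from this count, since at most 2.34% of all kept genes were lower and 1.63% higher by that much.

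**Figure D3:**
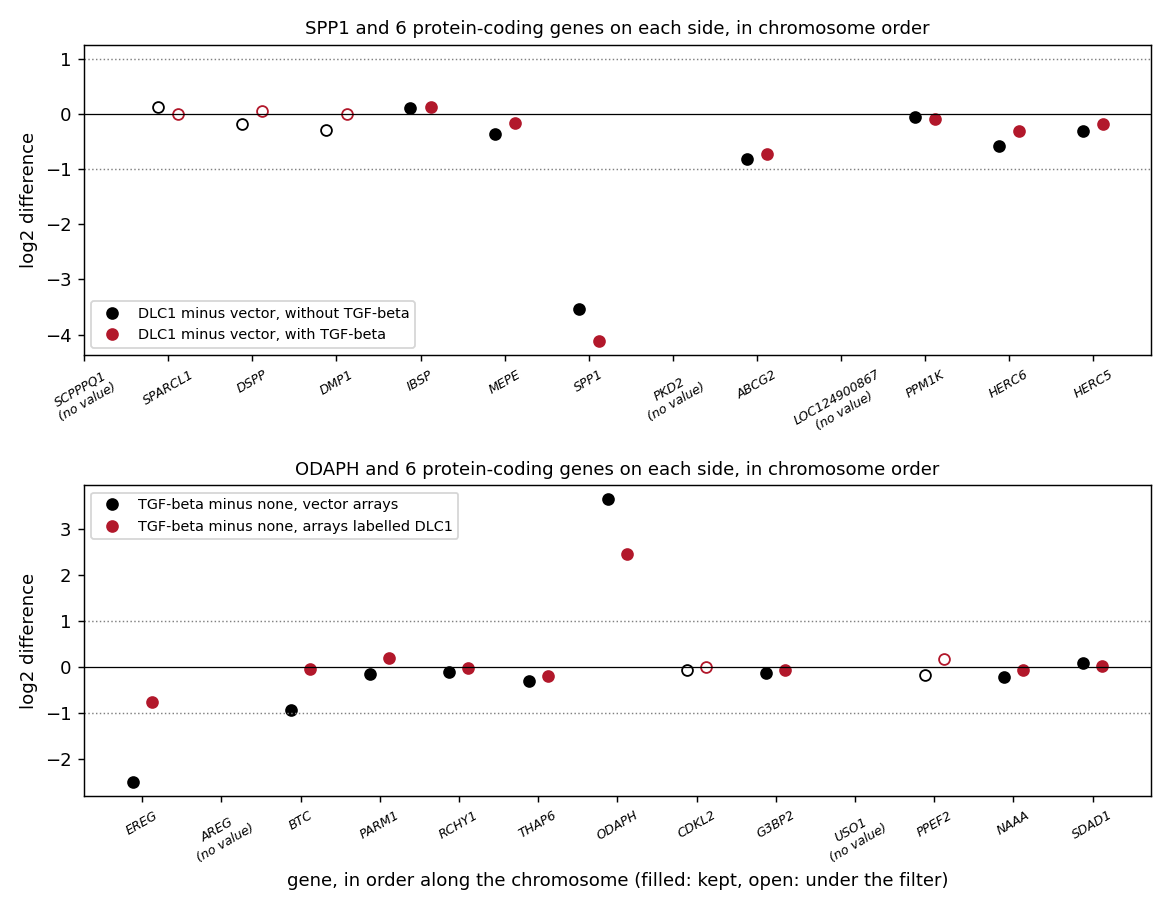
Log2 differences of SPP1 (top, DLC1 minus vector) and ODAPH (bottom, TGF-beta minus none) and of the 6 protein-coding genes on each side, in chromosome order; filled points are kept genes, open points genes under the filter, and dotted lines mark 2-fold. Among all kept genes SPP1 had the lowest DLC1 differences and ODAPH the highest TGF-beta difference in the vector pair. That they stand apart from their neighbours there was thus fixed in advance. EREG, at -2.50 and -0.75, is the other gene past 2-fold in the lower panel.

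Among 17 measured relatives in the calcium-binding phosphoprotein family, only MEPE and HTN1 were kept. HTN1, a histatin gene of saliva, gave 0.34 and 2.02 for the vector pair and 0.28 and 2.14 for the DLC1-labelled pair. Like ODAPH it was higher with TGF-beta, by 2.57 and 2.93, but it differed by -0.28 and 0.08 between DLC1 and vector. Its probe set, 206639_x_at, is of the kind that can match several genes, and HTN1 and the near-identical HTN3 may share its signal. The other 15 relatives, caseins and enamel proteins among them, stayed between 0.07 and 0.35. Of 5 measured markers of ameloblasts, the enamel-forming cells that express ODAPH, AMELX, ENAM, AMBN and MMP20 read between 0.08 and 0.21, while the protease gene KLK4 was kept, at 1.30 and 1.25 in the vector pair and 1.15 on both other arrays. The 5 markers summed to 1.83 and 1.76 in the vector pair and to 1.63 on both other arrays.

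Osteoblast markers were mostly dim too. SP7, ALPL and DMP1 read between 0.09 and 0.19. The 6 measured markers summed to 7.87 and 14.5 in the vector pair and to 5.41 and 11.9 in the DLC1-labelled pair. Within these sums COL1A1, read by 1556499_s_at, went from 0.94 to 9.70 and from 1.0 to 7.27. Its other kept probe sets did not all rise so. The part of such cells in the TGF-beta differences was not tested. RUNX2, the transcription factor of bone-forming cells, read 5.97 in the vector array and between 3.47 and 3.90 on the other 3. Any link between its level and that of SPP1 was not tested. The other kept factors of bone and enamel gave small differences between DLC1 and vector: ATF4 0.63 and 0.46, SOX9 -0.45 and -0.37, and ETS1 -0.36 and -0.29. The breast line markers VIM, CD44, AXL, EGFR, MSN and CAV1 were all kept, with sums of 496 and 532 in the vector pair and 421 and 468 in the other pair. Of 7 luminal breast markers 5 were kept, with KRT18 at 65.1, EPCAM at 7.45, KRT8 at 6.25 and GATA3 at 4.59 in the vector array, while CDH1 and FOXA1 stayed under the filter; the 7 summed to 84.0 and 79.2 in the vector pair and 82.7 and 74.2 in the other.

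**Figure D4:**
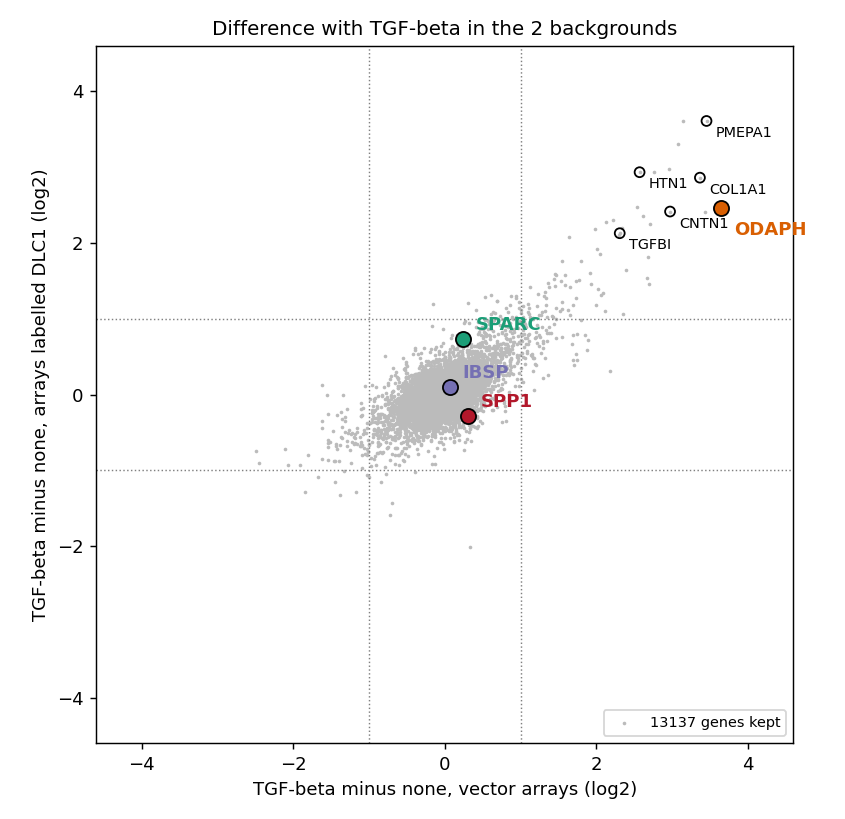
Log2 TGF-beta difference in the vector pair (x axis) and the DLC1-labelled pair (y axis) for the 13137 genes kept (grey), with the 4 genes in colour, comparison genes ringed and dotted lines at 2-fold. ODAPH lies at 3.65 and 2.46 near COL1A1, with PMEPA1 higher on the y axis, at 3.61. SPP1, IBSP and SPARC lie within 2-fold on both axes.

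Most receptors of these proteins were kept and stayed within 2-fold between DLC1 and vector. Of 11 measured, 9 were kept; between DLC1 and vector 1 was at least 2-fold lower in each state and none higher, where 2.34% and 1.64% of all kept genes were that much lower; the medians were -0.24 and -0.22, against -0.03 and -0.02 over all. CD44, a receptor for osteopontin and hyaluronan, gave 66.6 and 84.1 for the vector pair and 56.3 and 71.1 for the DLC1-labelled pair. ITGAV, the alpha chain of the vitronectin receptor that binds Arg-Gly-Asp, read 19.5 and 40.5, and 17.3 and 29.0, with TGF-beta differences of 1.06 and 0.74. Its partner ITGB3 stayed between 0.46 and 0.74, while ITGB5 read 12.8 and 17.4, and 12.5 and 17.2. ITGB8, which pairs with ITGAV to activate latent TGF-beta, was the gene lower without TGF-beta, at -1.62. Its TGF-beta difference in the vector pair was -1.31 and its interaction 1.02. ITGA5, the alpha chain of the fibronectin receptor, was the one lower with TGF-beta, at -1.16, and its TGF-beta differences were 1.27 and 0.55. For TGF-beta in the vector pair, 2 of the 9 were thus at least 2-fold higher and 1 lower, where 1.21% and 0.685% of all kept genes were. In the DLC1-labelled pair none were, where 0.792% and 0.107% of all kept genes were. The list medians were 0.34 in each pair, against -0.03 and -0.01 over all.

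In the SPARC family 5 of 7 genes were kept, and 1 passed 2-fold. SPOCK1, a proteoglycan of that family, read 3.10 and 6.07, then 2.23 and 3.02, and gave -1.01 between DLC1 and vector with TGF-beta, where 1.64% of all kept genes were at least 2-fold lower. FSTL1, a secreted follistatin-like glycoprotein, had TGF-beta differences of 0.74 and 0.47. SMOC1 stayed between 0.77 and 0.80.

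Of 19 measured other bone matrix genes 9 were kept. With TGF-beta 3 were at least 2-fold higher in each background and none lower, where 1.21% and 0.792% of all kept genes were higher, with medians of 0.34 and 0.64, against -0.03 and -0.01 over all kept genes. COL1A1, a chain of collagen I, gave 3.37 and 2.86 in 1556499_s_at and 1.75 and 1.68 in 202310_s_at. It gave only -0.11 and -0.33 in 217430_x_at, and 0.08 and 0.40 in 202312_s_at. TGFBI, a matrix protein that binds collagen and integrins, gave 2.31 and 2.13. FN1, the fibronectin gene, passed 2-fold in the vector pair, at 1.38, and THBS1, a thrombospondin gene, in the DLC1-labelled pair, at 1.21. Between DLC1 and vector TNC, the tenascin gene, was lower in both states, at -1.40 and -1.07, and THBS1 without TGF-beta, at -1.68. Probe sets of THBS1 disagreed on which side of 2-fold they fell: 201109_s_at gave -1.40 and -1.31 between DLC1 and vector, and 1.41 and 1.50 with TGF-beta. In the vector pair the chosen set, 201110_s_at, gave 0.31 with TGF-beta, while the other kept THBS1 sets gave 1.07 to 1.75. The count of genes past 2-fold in that pair thus depends on the probe set. The small proteoglycans and other matrix genes DCN, LUM, ASPN, OMD, OGN and POSTN, and the collagen I gene COL1A2, stayed between 0.07 and 0.31.

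Of the enzymes that cut or crosslink these proteins, 2 were at least 2-fold lower between DLC1 and vector without TGF-beta and 1 with it, of 8 kept, where 2.34% and 1.64% of all kept genes were. MMP3, a stromelysin that cleaves osteopontin, read 19.0 and 13.1 in the vector pair and 2.81 and 2.72 in the DLC1-labelled pair, differences of -2.76 and -2.27. PLAU, the urokinase gene, gave -1.11 and -0.90 in 205479_s_at, and -1.18 and -1.22 in 211668_s_at; its TGF-beta differences in the first were 1.55 and 1.77. TGM2, which crosslinks osteopontin, gave -0.87 and -0.47. The list had 8 kept genes of 13, none higher, and medians of -0.38 and -0.45 between DLC1 and vector, against -0.03 and -0.02 over all kept genes. MMP7, another protease that cuts osteopontin, stayed between 0.19 and 0.24. Of 11 enzymes and carriers of mineralisation and phosphorylation 8 were kept and none passed 2-fold in any comparison. Over all kept genes at most 2.34% were lower and 1.63% higher by that much. FAM20C, the kinase that phosphorylates these secreted proteins, read 1.41 and 1.12, then 1.79 and 1.50. The phosphate transporter gene SLC20A1 gave -0.60 and -0.28.

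**Figure D5:**
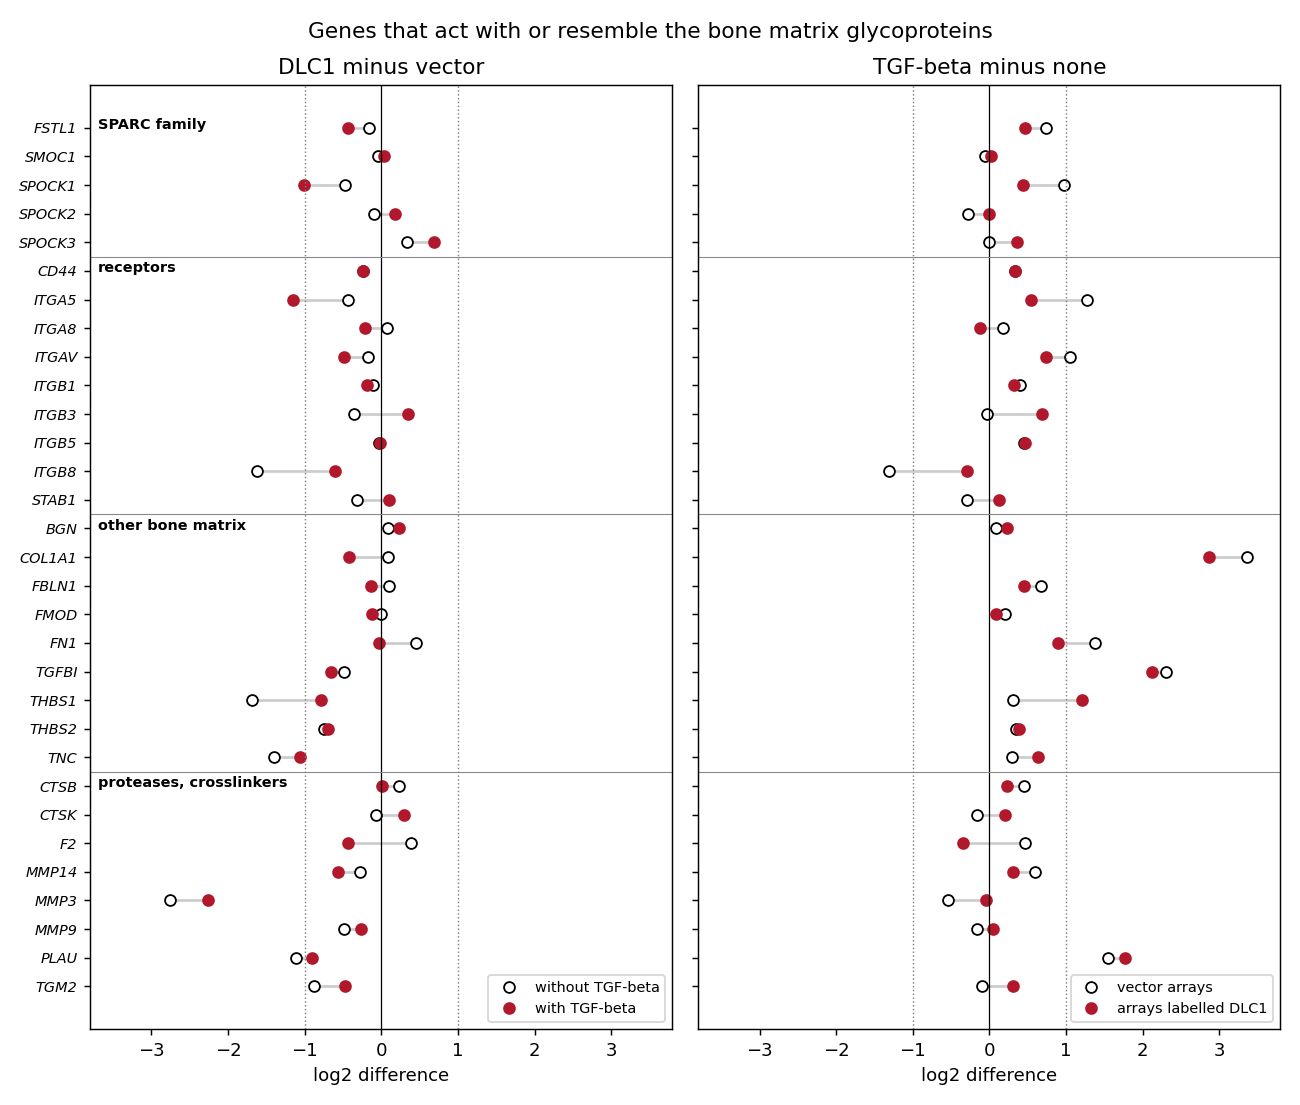
Log2 differences of the kept genes of the SPARC family, receptors, other bone matrix proteins, and proteases and crosslinkers, between DLC1 and vector (left; open without TGF-beta, red with it) and with TGF-beta (right; open vector pair, red DLC1-labelled pair), with dotted lines at 2-fold. MMP3, ITGB8, THBS1, TNC and PLAU lie past 2-fold to the left without TGF-beta, and COL1A1 and TGFBI lie farthest right with TGF-beta.

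Genes with the most similar pattern were found by the distance between log2 values centred on each gene's own mean over the 4 arrays. For SPP1 they were NRK at 0.93, MMP3 at 1.45, PTPN22 at 1.69, CALB1 at 1.72 and DEPDC7 at 1.77. NRK, a kinase gene, read 2.46 and 3.02 in the vector pair and 0.31 and 0.38 in the DLC1-labelled pair, a difference of -2.99 in each state. For ODAPH they were CNTN1 at 0.51, ADAM19 at 0.70, AKAP12 at 0.71, FERMT1 at 0.81 and EPHA4 at 0.81. CNTN1, which encodes a neural adhesion protein, read 0.89 and 6.99, then 0.36 and 1.92, with TGF-beta differences of 2.97 and 2.42. FERMT1, which encodes an integrin activator, read 5.87 and 38.3, and 3.51 and 16.8.

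For SPARC the nearest were NAV3 at 0.10, LINC00911 at 0.15, MARCHF3 at 0.19, NOG at 0.20 and RBM24 at 0.20. NOG, which encodes the BMP antagonist noggin, read 14.6 and 19.6, then 8.35 and 12.5. For IBSP the nearest were MAPK8, BECN1, GTF3C3, SRP54 and PANK3, at 0.01 to 0.02, all with differences of at most 0.16, so they share a nearly flat pattern. The 4 genes were far from each other by the same measure, from 1.05 between IBSP and SPARC to 3.95 between SPP1 and IBSP.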

How the data were processed

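RNA of SCP2 cells was measured on 4 arrays, grouped by their labels. The deposited file holds the authors' intensity, linear and given to 2 decimals, for each of 54675 probe sets; RMA is named per the submitters' processing notes, its version and settings not given in the sources used here. The number of arrays limits the precision. The platform annotation gives 41097 probe sets 1 symbol, 1801 several and 11777 none here. Log2 was taken with nothing added. The genes described, the lists and the motifs were chosen with earlier results of these data known. Named genes were every probe set of the 4 genes, up to 6 genes per list and comparison past 2-fold, the 5 nearest patterns per gene, and listed genes with a role to show; chromosome neighbours were added later, by position. Alternatives changed the choice of probe set, low values, the scaling (limma 3.58.1 under R 4.3.3 for cyclic loess) and the filter. Python 3.11.15 with numpy 2.4.6 and pandas 2.3.3 ran the comparisons, whose code was tested on simulated data.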

Additional observations from a re-analysis of the deposited data

Results flagged for a closer look

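The TGF-beta difference of SPP1 pointed opposite ways in the 2 backgrounds, 0.31 in the vector pair and -0.28 in the DLC1-labelled pair, which leaves an interaction of -0.59 on the log2 scale. The values behind it were 1.96 and 2.43 in the vector pair, and 0.17 and 0.14 in the other, close to the 25th percentile of all values, 0.14. Both differences are under 2-fold, each rests on 2 arrays, and the difference between them was not tested.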

How the results depend on the processing

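Over 20 differences and 9 alternatives, 166 of 170 values kept their direction, where past 2-fold, and their side of 2-fold. Part of this count was fixed in advance. A filter cannot change a gene's own difference, and ODAPH has a single probe set, so the probe set alternatives could not change its values. The floor at the 25th percentile, 0.14, could change none, since no value of the chosen probe sets lies below it. Leaving out sets ending in _s_at or _x_at could not change IBSP, whose chosen set has neither ending. The exceptions all concern SPARC between DLC1 and vector without TGF-beta, -1.07 as reported: -0.86 with 0.1 added before log2, -0.99 with housekeeping centring, -0.38 with the mean of probe sets, and 0.32, reversed, without probe sets ending in _s_at or _x_at, which leaves the set below the 25th percentile. SPARC and IBSP did not reach a filter at the 75th percentile and have no value there. SPP1 moved most with the mean of its probe sets, to -1.65 and -2.17, since one of them is near the lowest value in the file; both end in _s_at or _x_at, so leaving out such sets did not change its values. Counts over all genes moved by over 1.5 times in these cases. Between DLC1 and vector without TGF-beta, 307 lower became 170 with the mean of probe sets. With TGF-beta, 191 higher and 215 lower became 118 and 140 with the stricter filter. That filter kept 8391 genes instead of 13137, so all its counts are over fewer genes. For TGF-beta in the vector pair, 90 lower became 54 with the mean of probe sets and 58 with the stricter filter. In the DLC1-labelled pair, 104 higher became 64 with housekeeping centring, and 14 lower became 36 with it, 8 with the mean of probe sets and 9 with the stricter filter. For the interaction, 25 higher became 15 with the mean of probe sets, 16 with 0.1 added, 16 with housekeeping centring and 7 with the stricter filter, and 23 lower became 15 with the mean of probe sets, 14 with 0.1 added and 14 with the stricter filter. Apart from what these alternatives change by construction, the cause was not tested. No paired analysis was possible because the labels give no replicate numbers; an additive fit over the 4 arrays, which would take the interaction as error, was not run. Leaving out an array would empty its group. Low signal limits SPP1 in the DLC1-labelled pair, ODAPH in the untreated arrays, and IBSP and SPARC throughout.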
